A study of Mus musculus with 28 samples.

Results

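Ribosome-bound mRNAs immunoprecipitated from the adult superior colliculus (SC) were compared between Cre-positive and Cre-negative mice, with 2 libraries of each. The Cre-positive mice carried the RiboTag allele and Pax6-alpha-Cre on a C57BL/6 background, and the Cre-negative mice were of the same cross and carried the RiboTag allele without Cre. Both genotypes arose in a single litter, and the SCs of several mice were pooled for each precipitation. Of the 23995 genes listed, 5160 were above 0 FPKM (fragments scaled to transcript length and to the mapped fragments of the library) in at least 1 of these libraries, and 1524 reached 1 FPKM in at least 2 of the 4. These 1524 genes are described here. Adult retina (2 libraries) and SC at E17.5, P0.5 and P7.5 (2 Cre-positive and 2 Cre-negative libraries each) served for comparison. The labels give no age for the adult mice.

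Retinal ganglion cells (RGCs) are the projection neurons of the eye, and their axons end in the SC, a midbrain area of visual processing. In RiboTag mice, Cre switches the gene of the large-subunit ribosomal protein RPL22 to a form with a hemagglutinin (HA) tag, so that ribosomes of cells with a history of Cre can be pulled down with an HA antibody together with their mRNAs. Pax6-alpha-Cre acts in progenitors of the peripheral retina and marks other retinal neurons as well as RGCs, of which only RGCs send axons to the SC. The Cre-negative precipitate measures mRNA that sticks to antibody and beads without any tagged ribosome. A gene above this background in both replicates is the readout from which axonal translation is inferred.

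The libraries were shallow, and replicates differed widely in the genes they held. Depth was estimated from the spacing of low FPKM values, which gave 782000 and 1359000 fragments in the Cre-positive libraries and 549000 and 2138000 in the Cre-negative ones. On a transcript of 2 kb, 3 fragments then corresponded to 0.758 to 2.95 FPKM, and these estimates cover counting error only, since amplified fragments are not independent molecules. The library with the most fragments, Cre-negative replicate 2, held the fewest genes, 723 at 1 FPKM or more against 2604 in Cre-negative replicate 1, 2023 in Cre-positive replicate 1 and 908 in Cre-positive replicate 2. It stood apart from the others and listed 753 of the 1524 genes at 0, whereas Cre-negative replicate 1 listed 66 at 0. A value of 0 need not mean absence, since Gapdh, which every cell uses, was listed at 0 in all 4 libraries. Across the 1524 genes, Pearson's r on log2(FPKM + 1) was 0.562 between the Cre-positive replicates and 0.454 between the Cre-negative replicates, and 0.621 between replicate 1 of each genotype, which shared no genotype and were the shallowest libraries of the 4.

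The most abundant mRNAs were shared by both genotypes. Gnb1, which encodes a beta subunit of heterotrimeric G proteins, was the highest gene in all 4 libraries, with 14989 and 43481 FPKM in Cre-positive SC and 36690 and 64220 FPKM in Cre-negative SC, and it was listed at 0 in both retina libraries. That 0 need not mean absence from the retina, since Gnb1 also had no number in 4 SC libraries of earlier stages. Hsf2, Impact, Otub1, Ptges3, Gnl3l, Micu3 and Sfxn5 were likewise among the 10 genes with the highest minimum, and their groups overlapped. Actb, the cytoplasmic actin, lay at 7793 and 5684 FPKM in Cre-positive SC, below the 20097 and 10587 FPKM of Cre-negative SC. Tspyl1 followed with 2502 and 3872 FPKM against 3969 and 14149 FPKM. These last 2 genes were the members of the top 10 in which both Cre-positive values lay below both Cre-negative values.

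Both replicates placed 179 genes above the Cre-negative libraries and 174 genes below them. With 4 libraries the groups did not overlap in 11.7% of the 1524 genes in the higher direction and in 11.4% in the lower direction, and in the other 1171 genes (76.8%) they overlapped. An exact two-sided permutation test of 2 against 2 libraries cannot go below p = 0.333, so the non-overlap of a single gene carries no test. The gap between the groups, from the lowest library of the higher group to the highest library of the lower group, was at least 1 on the log2(FPKM + 1) scale for 99 higher and 89 lower genes. Of the 179 higher genes, 59 had entered only through the Cre-positive libraries and 31 were listed at 0 in both Cre-negative libraries. Of the 174 lower genes, 57 had entered only through the Cre-negative libraries and 36 were listed at 0 in both Cre-positive libraries, so for these genes the filter itself required a difference.

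**Figure D1:**
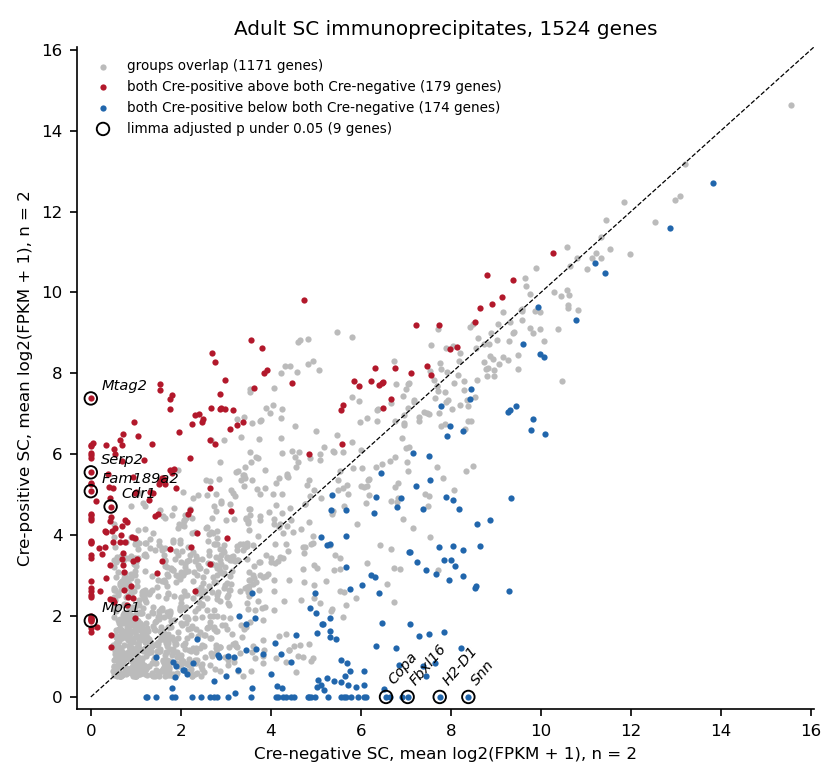
Mean log2(FPKM + 1) of the 2 Cre-positive adult SC libraries (y axis) against that of the 2 Cre-negative libraries (x axis) for the 1524 genes, with the diagonal of equal means dashed. The 179 red and 174 blue genes lie on either side of 1171 grey genes whose groups overlap, and 36 of the blue genes lie at 0 on the y axis, among them the 4 genes past the test.

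The replicates of the higher group were often unequal. Among the 174 lower genes, Cre-negative replicate 2 exceeded Cre-negative replicate 1 in 140 (80.5%), the median ratio of those libraries was 4.10, and it was above 10-fold in 59 genes. Among the 179 higher genes, Cre-positive replicate 2 was the higher one in 122 (68.2%), with a median ratio of 2.24 and more than 10-fold in 26 genes. With at least 3 estimated fragments required in both libraries of the higher group, 161 higher and 132 lower genes remained.

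Across the SC libraries of all stages, limma called 9 adult genes, 5 higher (0.0836% of 5983 genes tested) and 4 lower (0.0669%), with Benjamini-Hochberg adjusted p-values. At an unadjusted p under 0.05 the counts were 87 (1.45%) and 97 (1.62%). The test estimated the spread of each gene over all 8 SC groups of stage and Cre. The called genes were nearly absent from the other 12 SC libraries, where 7 of them stayed at or under 0.767 FPKM, Mtag2 reached 7.17 FPKM in a single library and H2-D1 reached 21.5 FPKM. Of the 9 genes, 8 had entered the fit only through the adult group in which they were high, so the filter itself required a difference, and their spread was estimated mostly from groups listed at or near 0. All 9 calls were lost when the fit was restricted to the 4 adult libraries or to the 8 libraries of P7.5 and adult.

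Cdr1 (ENSMUSG00000090546, chromosome X, 61184005 to 61185558, mm10), which encodes a neuronal antigen of paraneoplastic cerebellar degeneration, had 23.8 and 26.5 FPKM in the Cre-positive libraries and 0.840 and 0 FPKM in the Cre-negative ones, a difference of 4.27 ± 0.43 (SE, log2 scale, limma adjusted p = 0.0033). Its replicates lay closest together of the called genes, on about 26 and 51 estimated fragments, and C230004F18Rik overlaps it on the opposite strand, from which reads counted without strand cannot be told apart.

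Serp2, a member of the stress-associated endoplasmic reticulum (ER) protein family that stabilizes membrane proteins in the ER, had 17.8 and 116 FPKM against 0 in both Cre-negative libraries (5.55 ± 0.70, limma adjusted p = 0.010). Fam189a2, a membrane protein gene, had 11.8 and 89.4 FPKM against 0 and 0 (5.09 ± 0.72, limma adjusted p = 0.024). In both genes Cre-positive replicate 2 was several times the other replicate, and neither gene was above 0.892 FPKM in the retina.

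Mtag2 (chromosome 7, 45366163 to 45367948), whose exons overlap those of the presynaptic scaffold genes Lin7b and Ppfia3 on the opposite strand, had 95.0 and 287.8 FPKM against 0 and 0 (7.38 ± 0.91, limma adjusted p = 0.0099). Mpc1, a subunit of the mitochondrial pyruvate carrier, had 3.56 and 1.99 FPKM against 0 and 0 (1.88 ± 0.27, limma adjusted p = 0.025). The Mpc1 values amounted to about 1.7 estimated fragments in each library, which is under the floor of 3 fragments used here.

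The 4 genes called lower were listed at 0 in both Cre-positive libraries. Snn, which encodes the small membrane protein stannin, had 103 and 1078 FPKM in the Cre-negative libraries (difference -8.39 ± 0.90, limma adjusted p = 0.0033). Copa, the alpha subunit of the COPI coat of Golgi vesicles, had 53.7 and 161 FPKM there (-6.56 ± 0.63, limma adjusted p = 0.0033). Exons of Litaf and Txndc11 overlap Snn and exons of Ncstn overlap Copa on the opposite strand.

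Fbxl16, an F-box protein of the ubiquitin ligase family, had 49.5 and 341 FPKM in the Cre-negative libraries (-7.04 ± 0.76, limma adjusted p = 0.0033). H2-D1, a heavy chain of the class I major histocompatibility complex, had 49.7 and 916 FPKM (-7.75 ± 1.17, limma adjusted p = 0.034), and the split of its reads with near-identical genes of that complex is uncertain. These differences were measured on the log2(FPKM + 1) scale against values of 0 and are no bounds on a fold change.

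Among the 12 genes with the widest gap in the higher direction, Mtag2 and Serp2 passed the test and the others did not. Rock1, a kinase downstream of RhoA that acts on actomyosin, had 57.3 and 141 FPKM in Cre-positive SC and 1.48 and 0.0737 FPKM in Cre-negative SC (5.80 ± 1.07, limma adjusted p = 0.103). Gfra2, the co-receptor of neurturin, had 79.0 and 51.3 FPKM against 1.09 and 0 FPKM. In both genes the replicates of Cre-positive SC lay within 3-fold of each other.

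None of the following genes of this set passed the test. Ddost, a subunit of the enzyme that attaches glycans to proteins in the ER, had 26.5 and 142 FPKM against 0 and 0. Arl6ip1, which shapes ER tubules, had 96.1 and 124 FPKM against 2.75 and 0 FPKM. Fcf1, a factor of ribosomal RNA processing whose exons overlap Arel1 on the opposite strand, had 95.0 and 55.3 FPKM against 0 and 0. Also in the set were Rgcc, a regulator of the cell cycle, with 181 and 252 FPKM against 7.43 and 0 FPKM, Cxx1c with 35.1 and 153 FPKM against 0 and 0, whose reads may be split with its near-identical neighbours, and 2 globin genes described below.

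In the lower direction, the 12 widest gaps held the 4 called genes and 8 that missed the threshold. Atf6b, an ER stress transcription factor, had 0.531 and 0 FPKM in Cre-positive SC and 31.5 and 83.4 FPKM in Cre-negative SC (-5.40 ± 0.90, limma adjusted p = 0.061). Ctnnd2, the neuronal delta-catenin of adherens junctions, had 1.31 and 0.252 FPKM against 80.7 and 336 FPKM (-6.61 ± 1.22, limma adjusted p = 0.103). Sept3, a septin enriched at nerve terminals, had 3.05 and 0.319 FPKM against 110.9 and 810 FPKM. The 3 genes had at most about 4.1 estimated fragments in a Cre-positive library.

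Cdkal1, an enzyme of tRNA modification, was the gene of this set with the closest Cre-negative replicates, 158 and 152 FPKM against 2.15 and 1.54 FPKM in Cre-positive SC. Ppdpf had 0 and 0 FPKM against 68.1 and 207 FPKM, and Ppp2r2c, a regulatory subunit of protein phosphatase 2A, had 0.656 and 0 FPKM against 32.5 and 65.5 FPKM. Chmp5, a component of the ESCRT-III machinery that sorts membrane proteins, had 1.07 and 0 FPKM in Cre-positive SC and 34.8 and 851 FPKM in Cre-negative SC.

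**Figure D2:**
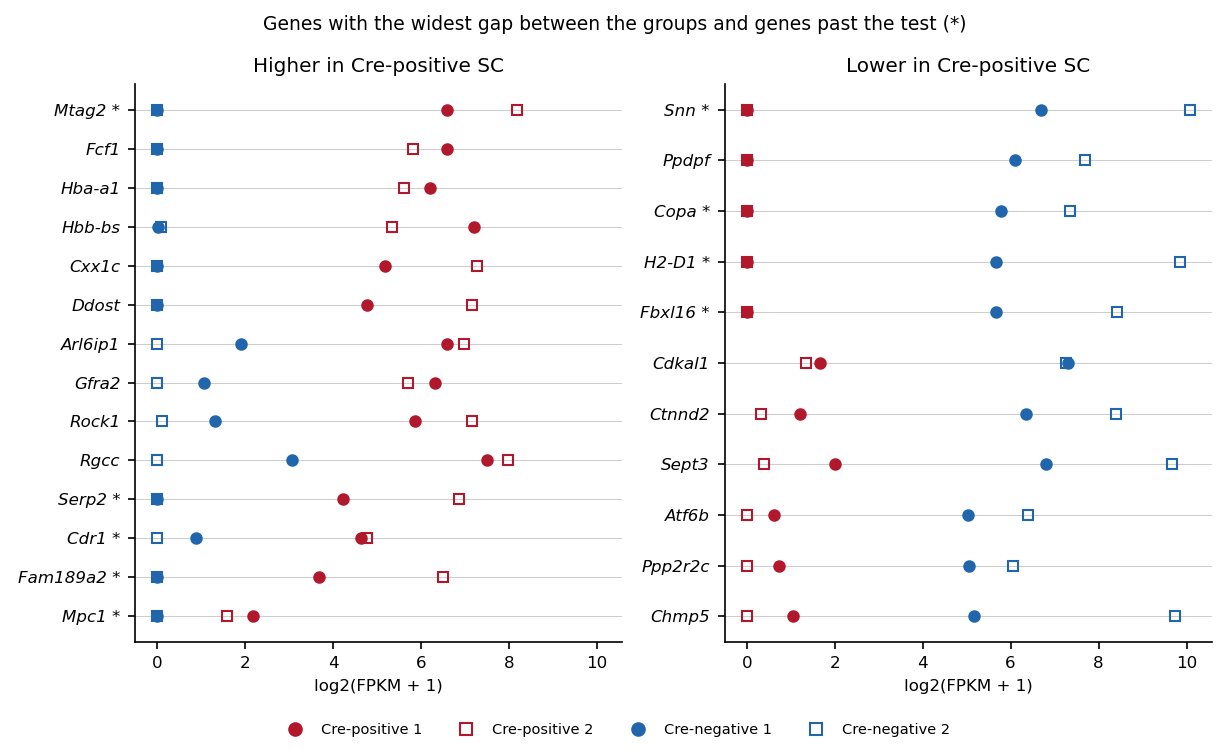
log2(FPKM + 1) in each of the 4 adult SC libraries for genes among the 12 with the widest gap in each direction, 1 of each 12 not being drawn, and for the genes past the test, which are starred, ordered by gap. On the left the Cre-negative points are low, many of them at 0 and that of Rgcc the highest. On the right the Cre-positive points are low, that of Sept3 being the highest. Cre-negative replicate 2 (open blue squares) lies above replicate 1 in every lower gene drawn but Cdkal1.

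Rpl22, the gene that carries the tag, did not check the genotype, because it was listed at 0 in both Cre-positive libraries and at 0.909 and 0 FPKM in the Cre-negative ones, on about 0.9 of a fragment. Of 25 RGC identity genes, 15 were listed at 0 in all 4 SC libraries, among them the transcription factor Pou4f2, the RNA-binding protein Rbpms, the surface protein Thy1 and the vesicular glutamate transporter Slc17a6. Of these 15 genes, 10 were listed at 0 in both retina libraries too. The first retina library listed 2082 genes above 0 and the second 8079.

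The 5 RGC identity genes that reached the level required were not higher in Cre-positive SC, and 1 of them lay lower. Pou4f1, a POU-domain transcription factor of RGCs, had 109 and 27.5 FPKM in Cre-positive SC, 595 and 0 FPKM in Cre-negative SC and 315 and 1274 FPKM in the retina. Tusc5 had 9.93 and 4.03 FPKM in Cre-positive SC, 137 and 1.02 FPKM in Cre-negative SC and 515 and 488 FPKM in the retina. Nell2, a secreted neuronal protein, was the lower one, with 0.423 and 0 FPKM against 1.20 and 477 FPKM. It had entered the genes described only through the Cre-negative libraries, so the filter itself required a difference. In Cre-negative replicate 1, where it had 1.20 FPKM, 1 fragment on a transcript of 2 kb corresponded to 0.984 FPKM. The sum over the 25 genes was 123 and 33.5 FPKM in Cre-positive SC and 817 and 478 FPKM in Cre-negative SC. Single genes carried the Cre-negative sums, Pou4f1 with 595 of the 817 FPKM and Nell2 with 477 of the 478 FPKM.

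Genes of photoreceptors and other retinal cells, none of which project to the SC, showed the same library on top. Of the 9 that reached the level required, 0 were higher and 0 lower, and 8 had their highest value in Cre-negative replicate 1, as did 4 of the 5 RGC identity genes. That library held the highest value of 459 of the 1524 genes (30.1%). Pde6g, a subunit of the rod phosphodiesterase, had 5.39 and 1.01 FPKM in Cre-positive SC, 45.5 and 1.91 FPKM in Cre-negative SC and 308 and 173 FPKM in the retina. What these values contribute to the difference between the groups was not tested.

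**Figure D3:**
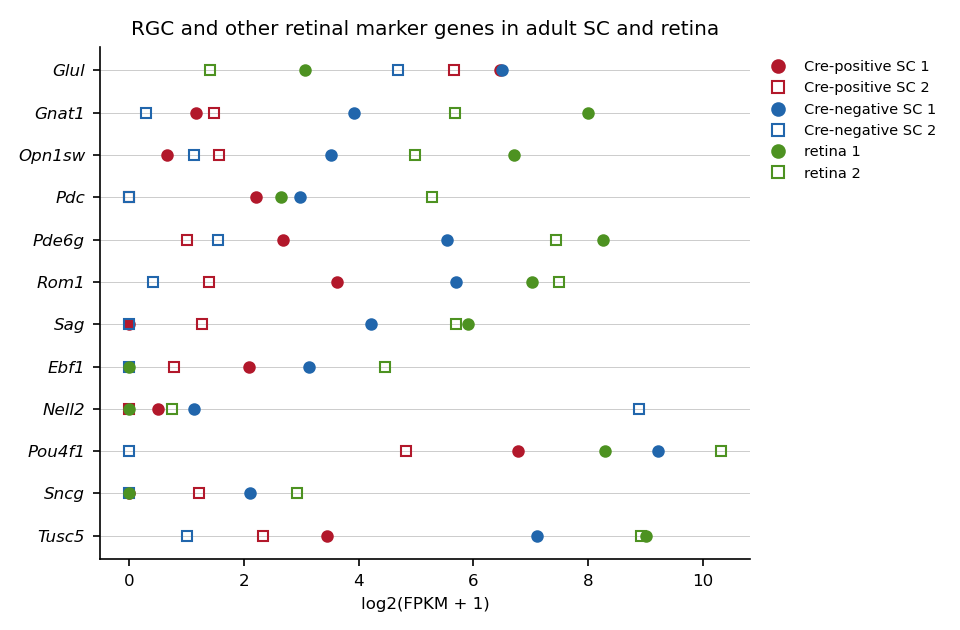
log2(FPKM + 1) of RGC identity genes (Ebf1, Nell2, Pou4f1, Sncg and Tusc5) and of most measured genes of photoreceptors and other retinal cells in the adult SC and retina libraries, 2 per group, without Gnb1. Cre-negative SC replicate 1 (filled blue circles) is the highest SC point for every gene shown but Nell2, where Cre-negative replicate 2 is.

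Markers of cells resident in the SC were present in both groups, and in such bulk samples fewer cells of a type and less mRNA per cell cannot be told apart. In the astrocyte list, 10 of 22 genes reached the level required, with sums of 1828 and 677 FPKM in Cre-positive SC and 989 and 302 FPKM in Cre-negative SC. Only Gja1, the gap junction protein connexin 43, did not overlap, with 613 and 563 FPKM against 180 and 253 FPKM. In the list of SC neurons, the synaptic organizer Cbln2 had 52.1 and 109 FPKM against 44.3 and 0 FPKM. Of the 8 measured genes of that list 2 lay higher and 0 lower, Cbln2 being 1 of the 2, and the summed level of the list was lower in Cre-positive SC, 1074 and 1397 FPKM against 1839 and 2011 FPKM. Pou4f1, which is in the RGC identity list too, supplied 595 of the 1839 FPKM in Cre-negative replicate 1. Without Pou4f1 the sums of the groups overlapped.

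Myelin genes ranged widely within a genotype. Cnp, an enzyme of oligodendrocyte membranes, had 653 and 878 FPKM in Cre-positive SC and 181 and 3128 FPKM in Cre-negative SC, and Mbp, the myelin basic protein, had 81.7 and 109.6 FPKM against 0 and 1019 FPKM. Qdpr, which regenerates tetrahydrobiopterin, was the 1 of 6 measured genes of the list above both Cre-negative libraries, with 22.1 and 287.1 FPKM against 1.48 and 0 FPKM. Of 17 microglial genes, 13 were listed at 0 in all 4 libraries and only Cst3 reached the level required, with 179 and 1.29 FPKM against 124 and 0 FPKM. Of 4 measured endothelial and pericyte genes, 1 was higher, 1 lower and 2 overlapped, with Vtn at 1.63 and 61.1 FPKM against 0 and 0.286 FPKM and Rgs5 at 0 and 0 FPKM against 1.10 and 469 FPKM. Vtn had entered only through the Cre-positive libraries and Rgs5 only through the Cre-negative ones, so the filter itself required a difference.

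Hemoglobin mRNAs were among the widest gaps of all genes. Hba-a1 had 73.3 and 47.6 FPKM in Cre-positive SC and 0.00054 and 0 FPKM in Cre-negative SC, and Hbb-bs had 146 and 39.6 FPKM against 0.015 and 0.061 FPKM. Their near-identical paralogs did not follow. Hbb-b1 had 0.0503 and 71.8 FPKM against 32.7 and 1318 FPKM, and Hba-a2 had 17.6 and 0.0423 FPKM against 14.5 and 0 FPKM. Summed over the blood list, Cre-positive SC had 237 and 159 FPKM and Cre-negative SC 47.3 and 1318 FPKM, so the groups overlapped, and the division of reads among these copies is uncertain.

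The other gene lists held proteins of axons, synapses and basic cell metabolism, and no member of any list was past the adjusted threshold of limma. Members printed with an unadjusted p-value were picked by the gap in these same libraries, so that p-value is no independent support. Over all 1521 genes with a fitted value, the median difference was 0.13 on the log2 scale. Each list is therefore given by how many of its genes did not overlap between the groups, beside 11.7% higher and 11.4% lower over all 1524 genes. Both the lists and these shares hold genes that entered only through the group in which they were high. Over all genes they were 59 of the 179 higher and 57 of the 174 lower ones, for which the filter itself required a difference.

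Synaptic vesicle and SNARE genes, which drive transmitter release, had 1 of 20 measured genes higher and 5 lower (25%), with a median difference of -0.75. Snap25, a core SNARE of the presynaptic membrane, was among the most abundant mRNAs with 2682 and 1462 FPKM in Cre-positive SC and 2187 and 7449 FPKM in Cre-negative SC, and its groups overlapped. Snap47, a relative of Snap25, was listed at 0 in both Cre-positive libraries and had 60.7 and 11.9 FPKM in Cre-negative SC (difference -4.82 ± 1.07, limma unadjusted p = 0.0010). It had entered the genes described only through the Cre-negative libraries, so the filter itself required a difference. Rab3b, a GTPase of synaptic vesicles, had 19.8 and 1.15 FPKM against 164 and 863 FPKM (-5.82 ± 1.30, limma unadjusted p = 0.0011).

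Of the other synaptic genes named here, Napa, the alpha SNAP that disassembles SNARE complexes, had 0 and 0 FPKM against 2.50 and 1271 FPKM, the first of these Cre-negative values on about 3.2 estimated fragments. Syt11, a synaptotagmin, had 0 and 0 FPKM against 1.22 and 21.1 FPKM, and Syt4, another synaptotagmin, had 79.1 and 10.3 FPKM against 155 and 89.3 FPKM. Like Snap47, Napa and Syt11 had entered only through the Cre-negative libraries, so for them too the filter itself required a difference. Sv2b, a glycoprotein of synaptic vesicles, was the single gene above both Cre-negative libraries, with 6.63 and 12.9 FPKM against 4.51 and 0.603 FPKM. Vamp2, the vesicle SNARE, did not reach the level required, at 0 FPKM in both Cre-positive libraries and 1.81 and 0 FPKM in the Cre-negative ones, and neither did Stx3.

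Receptors for glutamate and GABA were mostly under the level required, with 4 of 38 genes measured. Grm3, a presynaptic and glial metabotropic glutamate receptor, had 143 and 304 FPKM in Cre-positive SC and 71.3 and 97.8 FPKM in Cre-negative SC. Gabrb2, a subunit of the GABA-A receptor, had 0 and 0 FPKM against 2.18 and 8.52 FPKM. Of 12 genes for ion channels and pumps, 2 were higher and 2 lower. Atp2b1, a calcium pump of the plasma membrane, had 129 and 408 FPKM against 54.9 and 0.127 FPKM.

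Cytoskeletal genes had 4 of 23 measured members higher (17.4%) and 2 lower (8.70%), with a median difference of 0.30. Tppp, a tubulin polymerization promoter, had 19.8 and 8.86 FPKM in Cre-positive SC and was listed at 0 in both Cre-negative and both retina libraries (3.84 ± 1.12, limma unadjusted p = 0.0062). It had entered the genes described only through the Cre-positive libraries, so the filter itself required a difference. Tubb3, the neuronal beta tubulin, had 9.08 and 107 FPKM against 5.82 and 0 FPKM. Dpysl2, a collapsin response mediator, and Marcks, an actin-linking substrate of protein kinase C, were abundant in both groups, with 1702 and 1134 FPKM against 1097 and 183 FPKM and with 518 and 739 FPKM against 488 and 280 FPKM. Mapt, the microtubule protein tau, lay lower with 1.27 and 62.2 FPKM against 69.4 and 253 FPKM.

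Of 8 measured motor genes of axonal transport, 1 was higher and 1 lower (12.5% each, near the shares over all 1524 genes). Kif1b, which carries mitochondria and vesicle precursors, had 154 and 119 FPKM in Cre-positive SC and 32.9 and 63.9 FPKM in Cre-negative SC (1.54 ± 0.79, limma unadjusted p = 0.078). Kif1a, a carrier of synaptic vesicle precursors, had 1.25 and 0.090 FPKM against 11.5 and 364 FPKM (-5.43 ± 2.08, limma unadjusted p = 0.025). The groups of the other 6 measured motor genes overlapped.

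Of 34 genes of axon survival and apoptosis, 4 reached the level required. Atf4, a transcription factor of the integrated stress response whose mRNA is known from injured axons, had 152 and 199 FPKM in Cre-positive SC and 11.4 and 0 FPKM in Cre-negative SC (5.64 ± 2.10, limma unadjusted p = 0.022). Bcl2l1, the inhibitor of apoptosis Bcl-xL, had 171 and 46.6 FPKM against 787 and 1488 FPKM (-3.58 ± 1.35, limma unadjusted p = 0.023). Nmnat2, an NAD-synthesizing enzyme that keeps axons intact, was carried by 1 library, with 66.8 and 0 FPKM against 2.47 and 0 FPKM. Sarm1, its counterpart in axon degeneration, did not reach the level required.

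Genes linked to neurodegeneration had 1 of 17 measured members higher (5.88%) and 4 lower (23.5%). Their median difference was 1.68, so the count and the median pointed in opposite directions. That median was the value of Aplp2, with 29.4 and 0 FPKM in Cre-positive SC against 1.62 and 0.134 FPKM. Bin1, Clu, Grn and Itm2c, with larger differences, were likewise listed at 0 in Cre-positive replicate 2. Cre-positive replicate 1 held the highest value of 8 of the 17 genes, and Cre-negative replicate 2 that of 6. Aplp1, a relative of the amyloid precursor protein, had 64.8 and 47.9 FPKM in Cre-positive SC and 1.62 and 0 FPKM in Cre-negative SC (5.13 ± 1.33, limma unadjusted p = 0.0029). Park2, the ubiquitin ligase parkin, had 4.605 and 6.24 FPKM against 25.4 and 109 FPKM (-3.08 ± 0.99, limma unadjusted p = 0.010). Bace1, the beta-secretase, had 9.04 and 16.1 FPKM against 43.4 and 1014 FPKM, and the autophagy receptor Sqstm1 had 47.4 and 0.418 FPKM against 57.9 and 708 FPKM. Htt, Prnp and App did not reach the level required.

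Subunits of the respiratory chain had 0 of 30 measured genes higher and 5 lower (16.7%), with a median difference of -0.27. The 5 were Cox6c, Cox8a and Cox6a1 of cytochrome c oxidase, Atp5g1 of the ATP synthase and Ndufs3 of complex I. Of these, Cox6c, Atp5g1 and Ndufs3 had entered only through the Cre-negative libraries, so for them the filter itself required a difference. In Cre-positive replicate 2 only 4 genes of the list reached 1 FPKM, which left little room for a gene to lie higher in both replicates. Cox8a had 36.4 and 0 FPKM in Cre-positive SC and 214 and 1807 FPKM in Cre-negative SC (-6.67 ± 2.13, limma unadjusted p = 0.010), and Atp5g1 had 0 and 0 FPKM against 2.96 and 555 FPKM. The summed level of the list did not separate the groups, at 1936 and 266 FPKM in Cre-positive SC and 1095 and 3557 FPKM in Cre-negative SC. Cre-positive replicate 1 held the highest value of 12 of the 30 genes.

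Cytosolic ribosomal proteins, of which 26 of 86 genes reached the level required, had 3 genes higher (11.5%) and 2 lower (7.69%), both shares being no greater than those over all genes, with a median difference of 0.07. Rplp2, of the ribosomal stalk, had 62.6 and 19.3 FPKM in Cre-positive SC and 7.26 and 3.76 FPKM in Cre-negative SC. Rpl23 had 0 and 0 FPKM against 2.05 and 793 FPKM. The lower Cre-negative value of Rpl23 stood for about 0.6 fragments, and pseudogenes of ribosomal proteins can share their reads. Among translation factors, Eif5a had 63.1 and 304 FPKM against 10.5 and 0 FPKM and was the 1 of 13 measured genes that lay higher, with 2 lower.

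In the remaining lists few genes separated the groups. Of 14 genes for ubiquitin and 14-3-3 proteins, 1 was higher and 3 lower, with Ubb, a polyubiquitin gene, at 3.91 and 0.735 FPKM against 22.0 and 1429 FPKM. Glycolysis and citric acid cycle genes had 0 of 16 higher and 1 lower, the brain creatine kinase Ckb with 4.92 and 0.558 FPKM against 26.4 and 1937 FPKM. Rab GTPases had 1 of 8 higher and 2 lower, mitochondrial ribosomal proteins 1 of 10 higher and 1 lower, chaperones 0 of 6 higher and 1 lower, and histones 0 of 4 higher and 1 lower. The 6 measured proteasome genes and the 2 measured immediate early genes all overlapped.

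**Figure D4:**
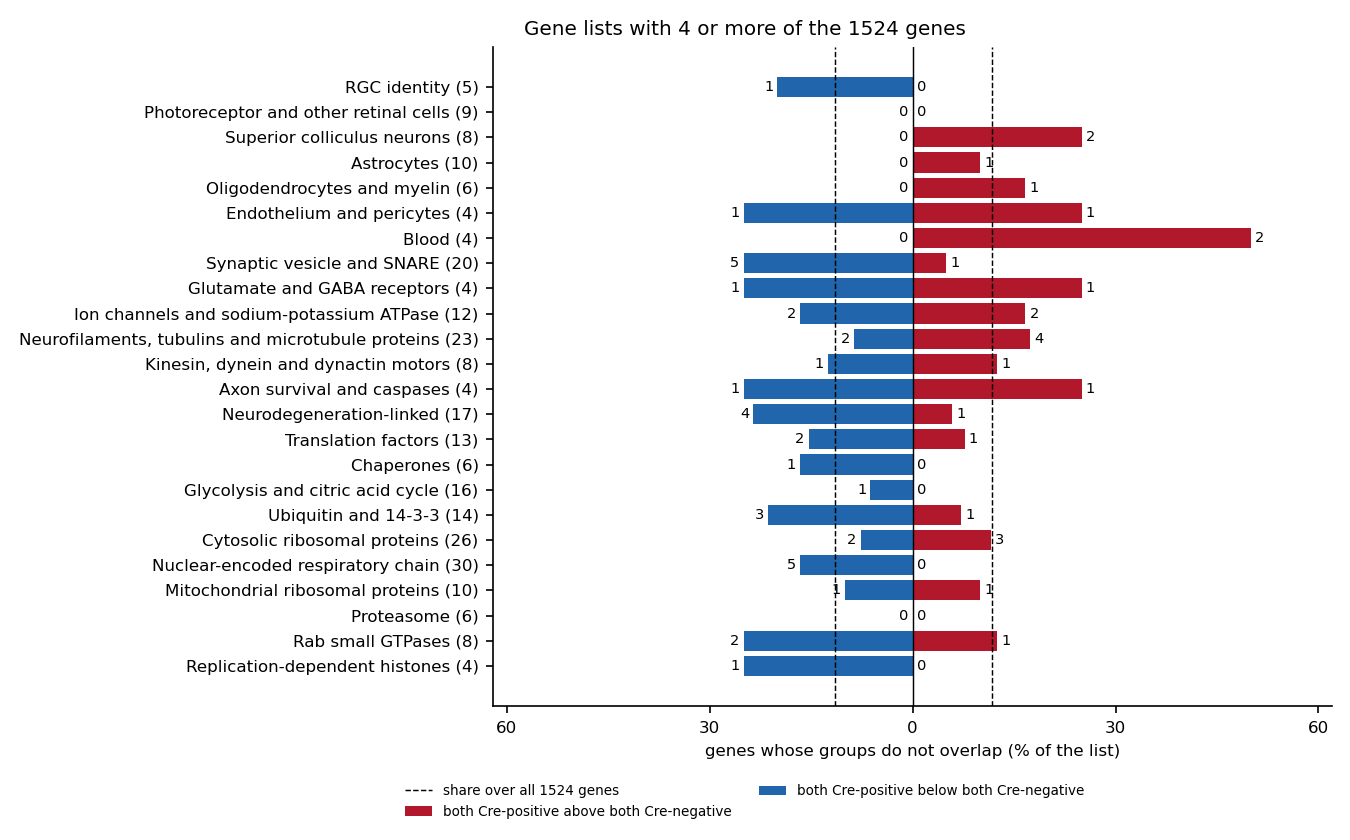
Share of the measured genes of each list (number in brackets) in which both Cre-positive libraries lay above (red, right) or below (blue, left) both Cre-negative libraries, with the number of genes beside each bar and the shares over all 1524 genes, 11.7% and 11.4%, dashed. Most lists hold fewer than 20 measured genes, so that 1 gene moves a bar by more than 5 percentage points.

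The retina and the earlier stages gave readouts made from other libraries. Of the 179 higher genes, 56.4% had at least 1 FPKM in both adult retina libraries, compared with 50.6% of the 174 lower genes and 50.7% of all 1524 genes. Only 6 higher and 3 lower genes were listed at 0 in both retina libraries. Their median transcript lengths were 2314 and 2151.5 bases, against 2058 bases over all 1524 genes.

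At P7.5, the nearest stage, the Cre-positive and Cre-negative libraries did not overlap in 6.3% of the 1524 genes in the higher and in 12.5% in the lower direction. Of the 179 genes higher in the adult, 11 (6.15%) were higher at P7.5 too and 24 (13.4%) were lower. Of the 174 genes lower in the adult, 16 (9.20%) were lower at P7.5 and 7 (4.02%) higher. The shares that kept their direction thus lay at or under those of all 1524 genes.

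At P0.5, when RGC axons branch, the same share was 38.1% over all 1524 genes in the higher and 13.8% in the lower direction. Of the 179 higher genes, 57 (31.8%) were higher at P0.5 and 26 (14.5%) were lower. Of the 174 lower genes, 34 (19.5%) were lower at P0.5 and 62 (35.6%) were higher. At E17.5, where 6.17% and 6.76% of all 1524 genes did not overlap in either direction, 16 of the higher genes (8.94%) and 11 of the lower genes (6.32%) kept their direction. The numbers that were higher or lower at all 4 stages were 0 and 0.

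The genes that kept their direction in the adult, at P7.5 and at P0.5 were 3 higher ones and 1 lower one. Fbxo46, an F-box protein, was abundant throughout, with 250 and 616 FPKM in adult Cre-positive SC against 145 and 0.320 FPKM, 1085 and 700 FPKM against 176 and 470 FPKM at P7.5, and 3167 and 6463 FPKM against 1228 and 1494 FPKM at P0.5. Sez6l, a neuronal membrane protein, had 2.57 and 82.8 FPKM against 0.938 and 0 FPKM in the adult, and Ppp1r10, a nuclear regulator of protein phosphatase 1, had 1.25 and 1.43 FPKM against 0.883 and 0 FPKM. At P0.5 both genes lay near 0. Sez6l had 0.102 and 0.233 FPKM against 0 and 0 there, and Ppp1r10 had 0.252 and 0.0273 FPKM against 0 and 0. Cyfip2, a component of the WAVE complex that controls actin and binds FMRP, was the lower one, with 0.611 and 1.52 FPKM against 9.51 and 5.58 FPKM in the adult and 0 and 0.251 FPKM against 22.8 and 16.4 FPKM at P0.5. These 4 genes were named after their values had been seen.

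**Figure D5:**
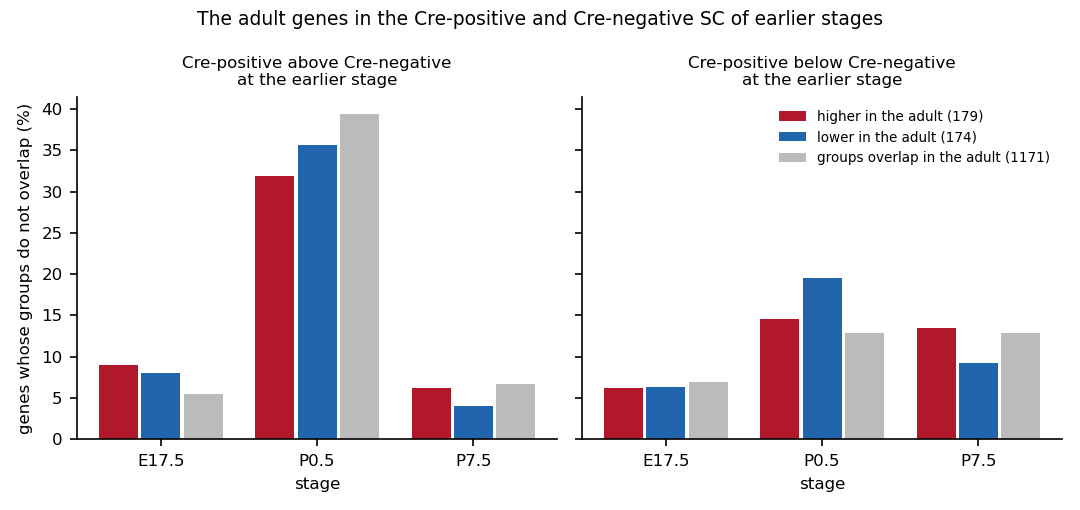
Share of the genes higher (red), lower (blue) or overlapping (grey) in the adult whose Cre-positive libraries lay above (left) or below (right) the Cre-negative libraries at E17.5, P0.5 and P7.5, 2 libraries per group at each stage. At P0.5 the bars on the left reach 31.8% to 39.5% in the 3 adult classes, and at E17.5 and P7.5 they stay at or under 8.94%.

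Tested directly, the adult difference was not distinguishable from that at P7.5 for any gene, with 0 genes more positive and 0 more negative by limma at an adjusted p under 0.05. At an unadjusted p under 0.05 they were 91 (1.52%) and 43 (0.719%). Compared with P0.5, the adult difference was more positive in 170 genes (2.84% of 5983) and more negative in 1152 (19.3%). These counts follow the sign of the change and not the size of the adult difference. At P0.5 itself limma called 1684 genes higher (28.1%) and 260 lower (4.35%), against 5 and 4 in the adult. The P0.5 libraries were deeper, with 6599000 to 11691000 estimated fragments against 549000 to 2138000 in the adult. What depth contributes to these counts was not tested. The median SD between the replicates of a group, over the 1524 genes on the log2 scale, was 1.30 in adult Cre-positive and 1.67 in adult Cre-negative SC, and 0.43 and 0.38 in the corresponding groups at P0.5.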

How the data were processed

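Each SC and retina library was made by immunoprecipitation with an HA antibody, reverse transcription and PCR amplification, followed by Illumina sequencing. The deposited values are FPKM per gene symbol, computed by the authors with Cufflinks 2.2.1 after alignment to mm10 by TopHat 2.0.12. Strand was not stated. The files give no read totals. Depth was therefore estimated from the spacing of low FPKM values in 3934 genes with a single transcript (GENCODE annotation of GRCm38), which left 69.0% to 85.1% of low values in adult SC within 0.15 of a whole fragment.

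The groups and replicate numbers came from the titles, which write some stages without the decimal part. The study calls the replicates biological, but no source names the mice of each replicate, so p-values measure the spread between these libraries. The 1524 genes, and 27 gene lists, were chosen with earlier results of these data known. log2(FPKM + 1) of the 16 SC libraries was fitted as 8 groups with limma 3.58.1 (R 4.3.3, statmod 1.5.0) with trend and robust moderation, on 5983 genes at 1 FPKM or more in at least 2 libraries. Two-sided p-values were adjusted over these genes by the method of Benjamini and Hochberg, with a threshold of 0.05. Actb, Gnb1 and Hsf2 had no number in 3 to 5 SC libraries of earlier stages and were left out of the fit, which leaves 1521 of the 1524 genes. The study's own test used read counts and was not run, since the files used hold FPKM. Summaries used Python 3.11.15, numpy 2.4.6, pandas 2.3.3 and matplotlib 3.10.9.

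Named genes were those past the threshold, the 12 with the widest gap per direction, up to 4 non-overlapping members per list and direction by gap (the 2 highest where a list had none), Rpl22, genes the study names for adult axons, and the 2 smallest and 2 largest adjusted p of the interaction with P7.5 among the widest gaps. Alternatives were another pseudocount, filter, scaling, moderation, weights, choice of libraries, the replicate block and leaving out each adult SC library. Some of these genes are not reported here. Run-off libraries and earlier retina were not used here.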

Additional observations from a re-analysis of the deposited data

Results flagged for a closer look

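For 15 of the named genes the Cre difference in the adult differed from that at P0.5 by limma's interaction term at an adjusted p under 0.05, a contrast in which 170 of 5983 genes were called higher and 1152 lower. These genes were chosen for their adult values, and at P0.5 the difference of 5 of them was exactly 0, so for those 5 the interaction equals the adult difference. None of the 15 values is independent support for the adult difference. The adult difference was the higher one for Gfra2 (by 9.78 ± 1.70 on the log2(FPKM + 1) scale), Ddost (8.18 ± 2.65), Rock1 (7.62 ± 1.51), Mtag2 (7.38 ± 1.29), Serp2 (5.43 ± 0.99), Fam189a2 (5.09 ± 1.02), Cdr1 (4.27 ± 0.61) and Mpc1 (1.75 ± 0.39). It was the lower one for Cdkal1 (-9.20 ± 2.07), Atf6b (-8.96 ± 1.28), Snn (-8.39 ± 1.27), Fbxl16 (-7.04 ± 1.07), Ctnnd2 (-6.76 ± 1.72), Copa (-6.66 ± 0.89) and Sept3 (-6.28 ± 1.94). The interaction of these genes with P7.5 did not pass the threshold, with adjusted p from 0.076 for Cdr1, Copa, Fbxl16 and Snn upward.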

How the results depend on the processing

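The count of limma calls depended on which libraries supplied the spread. The main fit gave 5 higher and 4 lower adult genes. There were 0 and 0 in the 4 adult libraries alone (10 and 21 at an unadjusted p under 0.05), 0 and 0 with the replicate block (128 and 130 unadjusted, with adjusted p from 0.101 to 0.194 for the 9 genes), and 0 and 0 in the 8 libraries of P7.5 and adult (76 and 84 unadjusted), the last an alternative chosen after seeing the data. Without a filter 3 genes were higher. Leaving out each adult SC library in turn gave 6 to 99 higher and 4 to 116 lower genes, the most without Cre-positive replicate 2 and without Cre-negative replicate 2, where the lone sample was assumed to vary like the other groups. Of the 9 called genes, 9 kept their call with a pseudocount of 0.1 and with median-ratio scaling, 8 without trend or robust moderation, 7 with array weights, 7 with the filter on the adult libraries and 6 without a filter. The replicate block is not a pairing given by the labels: same-numbered adult replicates deviated with r = 0.081 over 1521 genes. At E17.5 the block gave 4 higher and 15 lower genes in place of 28 and 66. For the adult minus P7.5 difference, leaving out a library gave 2 to 55 higher and 0 to 55 lower genes in place of 0 and 0, and a pseudocount of 0.1 gave 2 lower. Without overlap were 179 higher and 174 lower genes, 99 and 89 with a gap of at least 1, and 284 to 601 and 257 to 599 when a library was left out. None of the 27 called and widest-gap genes changed direction in an alternative. Their groups do not overlap, so leaving out a library cannot change the direction, and this is no independent support. The direction of the other named genes was not recomputed. Depth limits low genes: 1 fragment on 2 kb was 0.984 FPKM in Cre-negative replicate 1.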

Other observations

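Of the 1524 genes, 531 (34.8%) reached 1 FPKM in Cre-positive replicate 1 and Cre-negative replicate 1 alone, the libraries with the fewest estimated fragments, in which depth and replicate number cannot be told apart. Both Cre-positive libraries alone held 59 genes (3.87%), both Cre-negative libraries alone 57 (3.74%), and Cre-positive replicate 2 with Cre-negative replicate 2 alone 2 (0.131%). All 4 libraries held 354 genes (23.2%).

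Ntrk2, the receptor of brain-derived neurotrophic factor, did not reach 1 FPKM in 2 libraries, with 0.552 and 41.1 FPKM in Cre-positive SC and 0.260 and 0 FPKM in Cre-negative SC. Rhobtb3 was carried by Cre-negative replicate 1 alone, with 57.7 FPKM there and 0 in the other 3 libraries. Clta, the clathrin light chain, had 1.44 and 0 FPKM in Cre-positive SC and 93.2 and 0 FPKM in Cre-negative SC. Acot7, Ubn2 and Ankrd12 were at or under 3.04 FPKM in every adult SC library.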
